A study of Rattus norvegicus with 12 samples.

Results

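The genes described here are 35 genes of DNA replication and S phase, followed in cultured rat theca-interstitial cells, the steroid-making and stromal cells that surround the ovarian follicle. The rule names them by symbol and uses no measured value, but the list was chosen with earlier results of these data known. All 35 were found among the 30045 rows of the read-count table and among the 17330 genes tested. The cells came from wild-type female Sprague Dawley rats at postnatal day 30 and were grown on human fibronectin. They were kept for 48 h with rat interleukin-1 beta (IL-1b, an inflammatory cytokine, 4 cultures), with LPS (lipopolysaccharide, a bacterial cell wall component, 4 cultures) or with vehicle (control, 4 cultures). The labels give a dose of 1 µg/ml after LPS and do not say whether it also holds for IL-1b, and nothing in them ties replicates to different animals or isolations, so the spread behind the p-values is that of these cultures and may be technical.

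Cells copy their DNA in S phase. The origin recognition complex, Cdc6 and Cdt1 load the MCM helicase onto origins. Cdc45, the GINS complex and Mcm10 then switch the helicase on, and polymerases held by the PCNA clamp copy the strands, while ribonucleotide reductase and thymidylate enzymes supply nucleotides and chromatin factors repackage the new DNA. In the ovary, theca cells multiply as follicles grow, and many genes of this machinery are transcribed through E2F factors.

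Libraries held 23193408 to 26836323 counts with IL-1b, 25643226 to 28698783 with LPS and 20873934 to 32090924 in control, and any of the 35 genes had 84 to 2817 counts in a library. Levels are given as CPM, read counts divided by the library total after TMM scaling, which sets libraries to a common composition, and differences as log2 fold changes with their SE. Genes were called at an adjusted p under 0.05 in edgeR's quasi-likelihood test with Benjamini-Hochberg adjustment over all genes tested. The labelled cell type had Nr5a1, a steroidogenic regulator, at 68.8 to 89.5 CPM and Star, which carries cholesterol into mitochondria, at 127 to 425 CPM, but Cyp17a1, the defining theca androgen enzyme, was at 0.395 to 17.5 CPM and the theca peptide Insl3 at 0.156 to 0.731 CPM. Markers of smooth muscle, macrophages, endothelium, granulosa cells and oocytes were detected as well.

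Replication genes differed little between treated and control cultures. Their summed level was 1068, 1053, 1062 and 1038 CPM in the IL-1b cultures, 1062, 1054, 1161 and 1070 CPM in the LPS cultures and 1103, 1090, 1133 and 1139 CPM in the control cultures. The IL-1b cultures lay below every control culture, as did LPS replicates 1, 2 and 4, whereas LPS replicate 3 lay above all of them. This separation held under TMM scaling and was lost with library size alone: as a plain share of all counts, the 35 genes held 0.105% to 0.108% with IL-1b, 0.107% to 0.116% with LPS and 0.106% to 0.111% in control, and the mean sums were then 1070 CPM with IL-1b, 1094 CPM with LPS and 1093 CPM in control. In bulk RNA, fewer cells of a type and less RNA per cell cannot be told apart. The median log2 fold change of the 35 genes was -0.06 with IL-1b and -0.04 with LPS, beside 0.0094 and 0.0098 over all genes tested. Scaled by DESeq2's size factors, it was -0.068 with IL-1b and -0.048 with LPS, beside 0.0021 and 0.0021. Scaled by upper-quartile factors, it was -0.061 with IL-1b and -0.052 with LPS, beside 0.0093 and -0.0021. With library size alone it was -0.010 with IL-1b and -0.0015 with LPS, beside 0.060 and 0.049. The median absolute log2 fold change was 0.07 with IL-1b and 0.08 with LPS among the 35 genes, beside 0.17 and 0.15 over all genes tested. Apart from Hells, no gene had a 95% interval that reached above a 1.21-fold increase with IL-1b or a 1.22-fold increase with LPS. Downward the intervals reached further, to a log2 fold change of -0.603 with IL-1b (Chaf1b) and -0.48 with LPS (Gins1).

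**Figure D1:**
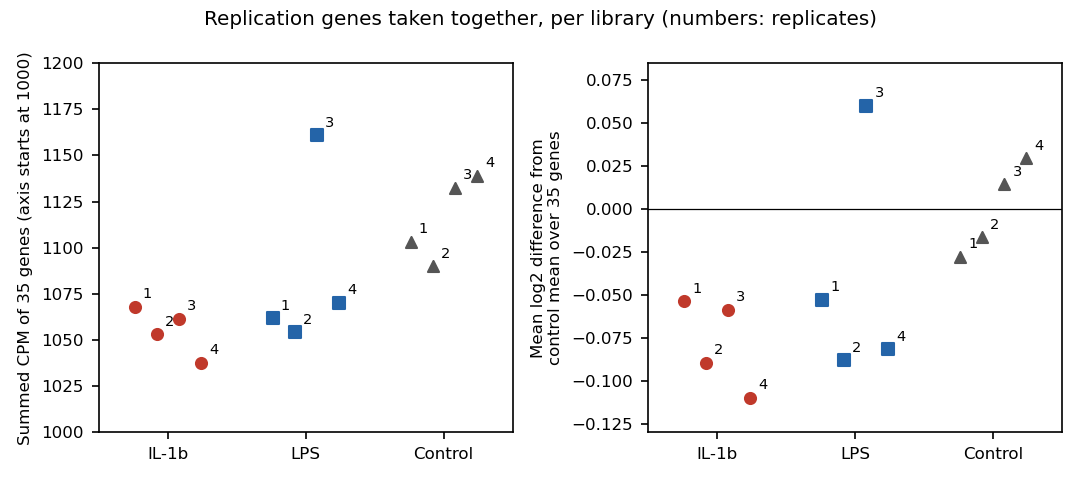
Left, summed CPM of the 35 replication genes in each library (the axis starts at 1000 CPM). Right, mean log2 difference of the 35 genes from their control mean, and in both panels each point is 1 library numbered by replicate. The IL-1b libraries sit at 1038 to 1068 CPM and the control libraries at 1090 to 1139 CPM, and LPS replicate 3 stands apart from the other LPS libraries at 1161 CPM.

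With IL-1b, 8 of 35 genes fell and 2 rose, where 23.0% of all genes tested fell and 24.7% rose. With LPS, 8 fell and 2 rose, beside 20.0% and 22.5% of all genes tested. The share of fallen genes, 8 of 35, was thus close to the background in both comparisons, and few rose. Scaled by library size alone, 2 of the 35 genes rose and 6 fell with IL-1b, beside 5558 and 3119 of the 17330 genes tested. With LPS, 5 of the 35 genes rose and 4 fell, beside 5015 and 2896 of the genes tested. Of all genes called, 64.1% were then higher with IL-1b and 63.4% with LPS, against 51.7% and 53% under TMM. Under that scaling Tk1 and Chaf1a were no longer called with IL-1b, nor Pcna, Chaf1a, Chaf1b and Uhrf1 with LPS, while Mcm3, Rfc3 and Slbp were called higher with LPS. Both comparisons use the same 4 control cultures. The genes called lower in each were Pole, Pcna, Rrm2, Tyms, Tk1, Chaf1a, Chaf1b and Uhrf1, and Hells was called higher in each. Mcm3 was the other gene called higher with IL-1b and Mcm7 the other called higher with LPS. The remaining 24 genes were called in neither comparison. Levels in the 4 treated and the 4 control cultures did not overlap for 8 lower and 2 higher genes with IL-1b, beside 21.4% and 22.8% of all genes tested, and for 1 lower gene (Tyms) and 2 higher genes with LPS, beside 18.2% and 20.1%.

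LPS replicate 3 was the highest of the 4 LPS cultures for 25 of the 35 genes (71.4%), beside 28.2% of all genes tested. It was also the highest for 17 of 22 genes of G2 and mitosis. This library was singled out for its high values in these same genes. Leaving it out therefore tends to lower their LPS levels, and the counts that follow are a description. Without it, 11 of the 35 genes were called lower with LPS and 2 higher, beside 19.3% and 20.9% of all genes tested, and the median log2 fold change was -0.07. The 8 omissions of single libraries gave 5 to 11 lower genes, and 11 was the highest. The added genes were Mcm2 (-0.11, adjusted p = 0.0369), Mcm5 (-0.15, adjusted p = 0.0194) and Rrm1 (-0.13, adjusted p = 0.00216). Without this library, 9 genes of the LPS cultures lay wholly below control, beside 20.8% of all genes tested.

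**Figure D2:**
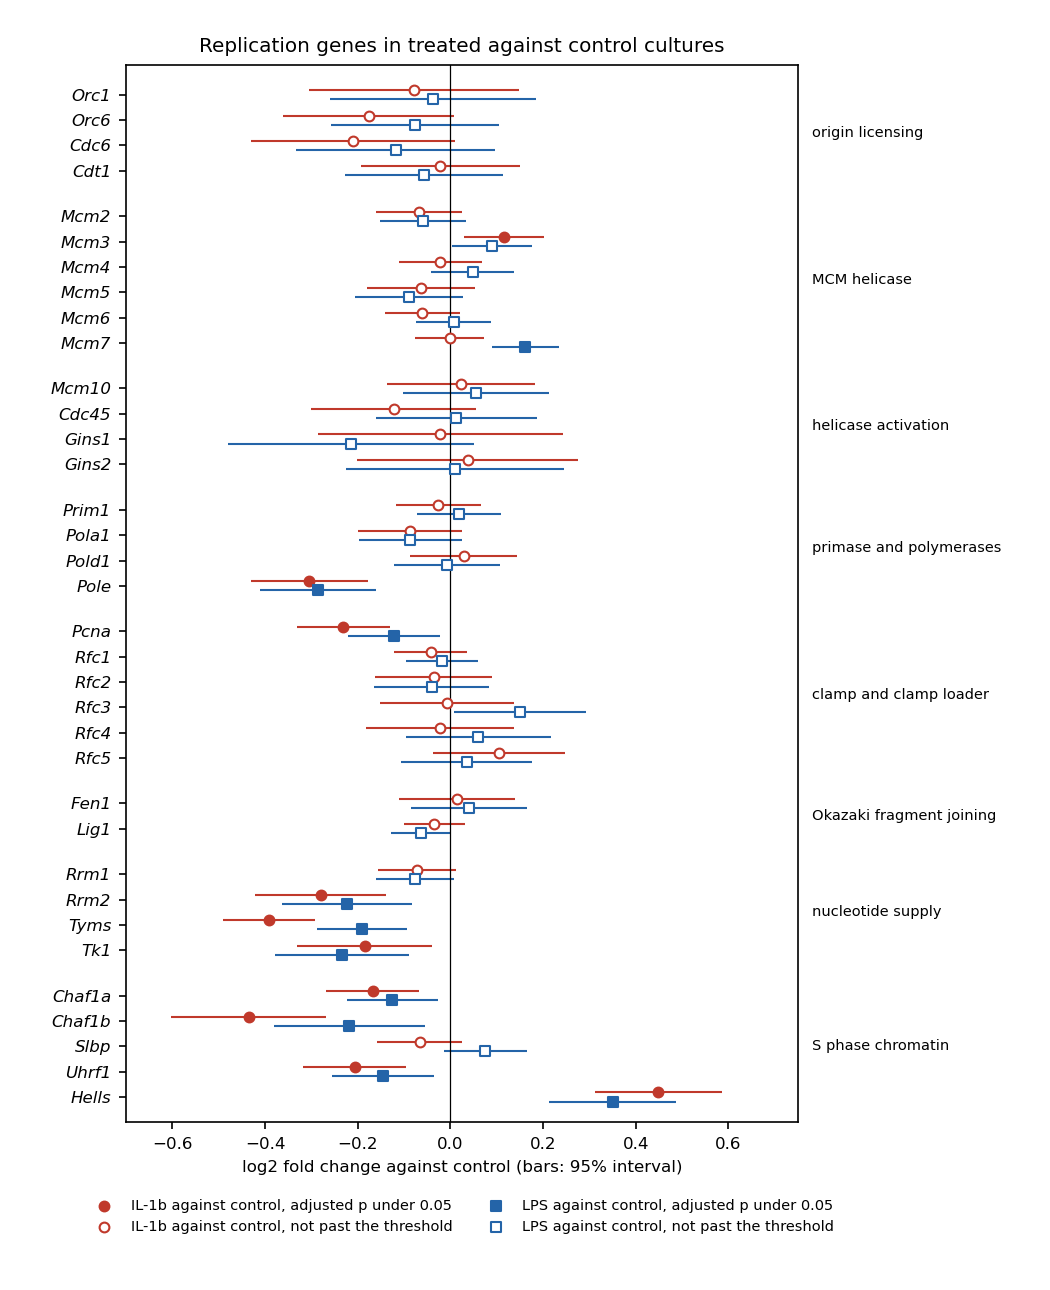
log2 fold change of each of the 35 genes in IL-1b (circles) and LPS (squares) cultures against control, grouped by role, with bars for the 95% interval and filled symbols for an adjusted p under 0.05. Most intervals cross 0, the nucleotide supply genes Rrm2, Tyms and Tk1 lie below it with both treatments, and Hells lies furthest above it.

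In nucleotide supply, 3 of 4 genes fell with both treatments, beside the 23.0% (IL-1b) and 20.0% (LPS) of all genes tested, and this small group was not tested against other genes. Tyms, thymidylate synthase, which makes the thymidine nucleotide, had 24.3, 22.6, 24.8 and 22.9 CPM with IL-1b, 26.6, 28.5, 27.1 and 26.5 CPM with LPS and 30.8, 30.8, 33.01 and 30.0 CPM in control. Every IL-1b culture was below every LPS culture, and every LPS culture below every control culture. Tyms fell by 0.39 ± 0.05 on the log2 scale with IL-1b (adjusted p = 1.13e-07) and by 0.19 ± 0.05 with LPS (adjusted p = 0.00157). Set directly against each other, LPS cultures were higher than IL-1b cultures by 0.20 ± 0.05 (adjusted p = 0.00384).

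Rrm2 encodes the small subunit of ribonucleotide reductase, which converts ribonucleotides to deoxyribonucleotides. It had 45.3, 45.8, 49.5 and 47.7 CPM with IL-1b, 42.9, 47.2, 55.9 and 50.1 CPM with LPS and 55.4, 54.1, 57.5 and 61.7 CPM in control. The IL-1b cultures lay wholly below control, and LPS replicate 3 alone of the LPS cultures reached into the control range. Rrm2 fell by 0.28 ± 0.07 with IL-1b (adjusted p = 0.00254) and by 0.22 ± 0.07 with LPS (adjusted p = 0.0119). A row of an unnamed locus tracked Rrm2 across the 12 libraries (r = 0.989), so reads of the same transcript may be split between these rows, and the count of Rrm2 itself is uncertain. Rrm1, the large subunit, had 85.5, 87.6, 86.2 and 82.4 CPM with IL-1b and 80.4, 80.7, 94.9 and 84.97 CPM with LPS, against 89.3, 88.1, 89.3 and 92.4 CPM in control. Its log2 fold changes were -0.07 ± 0.04 with IL-1b (adjusted p = 0.15) and -0.08 ± 0.04 with LPS (adjusted p = 0.134), and neither was called in the fit on all 12 libraries. The IL-1b cultures lay wholly below control for Rrm1. In the fit on the 8 libraries compared, Rrm1 passed the threshold with IL-1b (-0.07, adjusted p = 0.0497).

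Tk1, the thymidine kinase of the salvage pathway, had 31.0, 31.5, 32.7 and 35.5 CPM with IL-1b, 27.7, 29.2, 34.3 and 35.1 CPM with LPS and 37.6, 34.3, 37.0 and 39.4 CPM in control. Both treated groups overlapped control at its lowest culture. Tk1 fell by 0.18 ± 0.07 with IL-1b (adjusted p = 0.0353) and by 0.23 ± 0.07 with LPS (adjusted p = 0.0101). The IL-1b call was lost without any of control replicates 1, 3 and 4 or IL-1b replicates 1, 2 and 3 (log2 fold change -0.19 to -0.15, adjusted p up to 0.107).

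**Figure D3:**
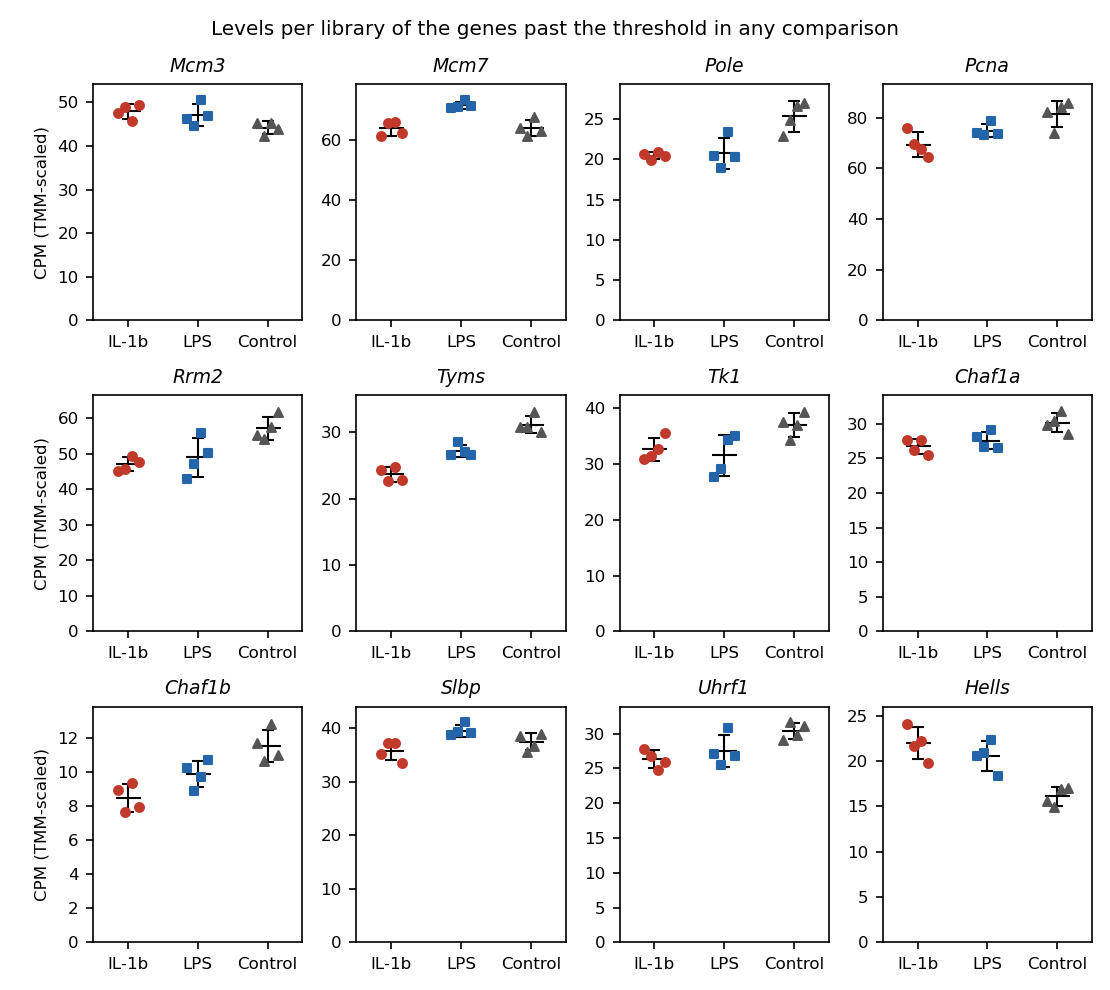
CPM in each library of the 12 genes past the threshold in any of the 3 comparisons, by group, with the mean (long bar) and SD (short bars) of 4 libraries, on axes that start at 0. Tyms is lowest with IL-1b and highest in control, Mcm7 is higher in LPS libraries alone, and Hells is higher in both treated groups.

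Among the chromatin factors of S phase, Chaf1b fell with both treatments. Chaf1a and Chaf1b are subunits of chromatin assembly factor 1, which places histones on newly copied DNA. Chaf1b had 8.98, 7.69, 9.36 and 7.95 CPM with IL-1b, 10.3, 8.92, 9.74 and 10.7 CPM with LPS and 11.7, 10.7, 12.8 and 11.02 CPM in control. All IL-1b cultures lay below all control cultures, and the LPS cultures overlapped both groups. It fell by 0.44 ± 0.08 with IL-1b (adjusted p = 6.34e-05) and by 0.22 ± 0.08 with LPS (adjusted p = 0.027). The LPS call was lost without control replicate 1 or 3 or LPS replicate 2 (log2 fold change -0.21 to -0.17, adjusted p 0.0612 to 0.106).

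Chaf1a had 27.7, 26.2, 27.6 and 25.5 CPM with IL-1b, 28.1, 26.7, 29.1 and 26.5 CPM with LPS and 29.9, 30.3, 31.8 and 28.5 CPM in control. The IL-1b cultures did not overlap control, and LPS replicate 3 did. It fell by 0.17 ± 0.05 with IL-1b (adjusted p = 0.00589) and by 0.13 ± 0.05 with LPS (adjusted p = 0.0374). The LPS call was lost without any of control replicates 1, 2 and 3 or LPS replicates 2 and 4 (log2 fold change -0.13 to -0.10, adjusted p up to 0.124), in DESeq2's Wald test (adjusted p = 0.0564) and with no filter on low counts (adjusted p = 0.0592).

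Uhrf1, which recruits the maintenance DNA methyltransferase to newly copied DNA, had 27.8, 26.8, 24.8 and 25.9 CPM with IL-1b, 27.0, 25.5, 30.8 and 26.7 CPM with LPS and 29.1, 31.6, 29.8 and 31.1 CPM in control. LPS replicate 3 was the only treated culture within the control range. Uhrf1 fell by 0.21 ± 0.05 with IL-1b (adjusted p = 0.00248) and by 0.15 ± 0.05 with LPS (adjusted p = 0.0289). The LPS call was lost without any of control replicates 2 and 4 or LPS replicates 1, 2 and 4 (log2 fold change -0.14 to -0.11, adjusted p up to 0.117).

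Hells, a chromatin remodelling ATPase that also serves DNA methylation, moved the other way. It had 24.1, 21.7, 22.3 and 19.8 CPM with IL-1b, 20.6, 20.9, 22.4 and 18.4 CPM with LPS and 15.6, 14.9, 16.9 and 17.1 CPM in control. Every treated culture was above every control culture. Hells rose by 0.45 ± 0.07 on the log2 scale with IL-1b (36.4% higher, adjusted p = 2.34e-06) and by 0.35 ± 0.07 with LPS (27.5% higher, adjusted p = 9.02e-05), and the calls held without any 1 library. The difference between LPS and IL-1b cultures was -0.10 ± 0.06 (adjusted p = 0.305). A row of an unnamed locus tracked Hells across the 12 libraries (r = 0.993), so its count is uncertain in the same way as that of Rrm2.

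Slbp, the protein that binds the stem-loop of replication-dependent histone mRNAs, had 38.7, 39.4, 41.2 and 39.1 CPM with LPS, 35.1, 37.3, 37.3 and 33.6 CPM with IL-1b and 38.6, 35.6, 36.7 and 39.0 CPM in control. LPS cultures lay wholly above IL-1b cultures, by 0.14 ± 0.04 (adjusted p = 0.0213). Against control, its log2 fold changes were 0.08 ± 0.04 with LPS (adjusted p = 0.173) and -0.07 ± 0.04 with IL-1b (adjusted p = 0.235). The difference between LPS and IL-1b cultures was lost without IL-1b replicate 1 or 4 or LPS replicate 3 (log2 fold change 0.11 to 0.13, adjusted p up to 0.0976).

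Of the polymerases, only the catalytic subunit of polymerase epsilon was called. Pole, which copies the leading strand, had 20.7, 19.9, 20.9 and 20.4 CPM with IL-1b, 20.4, 19.0, 23.4 and 20.2 CPM with LPS and 22.9, 24.8, 26.7 and 27.0 CPM in control. The IL-1b cultures did not overlap control, and LPS replicate 3 overlapped the lowest control culture. Pole fell by 0.30 ± 0.06 with IL-1b (adjusted p = 0.000161) and by 0.29 ± 0.06 with LPS (adjusted p = 0.000331). Pold1, the catalytic subunit of polymerase delta on the lagging strand, had log2 fold changes of 0.03 ± 0.06 with IL-1b and -0.01 ± 0.06 with LPS. Its 95% intervals ran from -0.09 to 0.14 with IL-1b and from -0.12 to 0.11 with LPS. The catalytic subunit of polymerase alpha, Pola1, had -0.09 ± 0.05 with both treatments, and the primase subunit Prim1, which lays down RNA primers, had -0.03 ± 0.04 with IL-1b and 0.02 ± 0.04 with LPS. Pola1 passed the threshold with LPS without LPS replicate 2 (-0.14, adjusted p = 0.0446).

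Pcna encodes the sliding clamp that holds polymerases on DNA. It had 76.05, 69.6, 67.7 and 64.4 CPM with IL-1b, 74.2, 73.2, 78.8 and 73.7 CPM with LPS and 82.3, 73.9, 84.1 and 85.7 CPM in control. Control replicate 2 was the lowest control culture, and the treated groups overlapped control there alone. Pcna fell by 0.23 ± 0.05 with IL-1b (adjusted p = 0.000471) and by 0.12 ± 0.05 with LPS (adjusted p = 0.0449). The LPS call was lost without any of control replicates 1, 3 and 4 or LPS replicates 1, 2 and 4 (log2 fold change -0.12 to -0.10, adjusted p up to 0.145). The 5 genes of the clamp loader, Rfc1 to Rfc5, were not called in either comparison, with log2 fold changes from -0.04 for Rfc1 to 0.105 for Rfc5 with IL-1b and from -0.04 for Rfc2 to 0.15 ± 0.07 for Rfc3 with LPS (adjusted p = 0.0829). Without LPS replicate 2, Rfc3 passed the threshold (0.19, adjusted p = 0.0415). Fen1 and Lig1, which trim and join Okazaki fragments, had log2 fold changes of 0.01 ± 0.06 and -0.03 ± 0.03 with IL-1b and of 0.04 ± 0.06 and -0.06 ± 0.03 with LPS.

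Of the 6 subunits of the MCM helicase, Mcm3 was called with IL-1b and Mcm7 with LPS, and differences among the subunits were not tested. All 6 were highest among the LPS cultures in LPS replicate 3. Mcm7 had 70.8, 71.0, 73.6 and 71.3 CPM with LPS, 61.5, 65.9, 66.1 and 62.45 CPM with IL-1b and 64.0, 61.6, 67.9 and 63.1 CPM in control. Every LPS culture was above every culture of both other groups. Mcm7 rose with LPS by 0.16 ± 0.04 against control (11.9% higher, adjusted p = 0.000487) and by 0.16 ± 0.04 against IL-1b (adjusted p = 0.00138). With IL-1b, its log2 fold change against control was -0.0015 ± 0.04, with a 95% interval of -0.08 to 0.07. Mcm3 had 47.5, 49.0, 45.7 and 49.4 CPM with IL-1b, 46.1, 44.7, 50.6 and 46.8 CPM with LPS and 45.2, 42.2, 45.4 and 44.0 CPM in control. It rose with IL-1b by 0.12 ± 0.04 (adjusted p = 0.0246), and the log2 fold change with LPS was 0.09 ± 0.04 (adjusted p = 0.0859).

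The IL-1b call of Mcm3 was lost in DESeq2's Wald test (adjusted p = 0.0619) and without control replicate 2 or 4 or IL-1b replicate 2 or 4 (log2 fold change 0.09 to 0.11, adjusted p up to 0.0947), and with LPS it passed the threshold without LPS replicate 2 (0.12, adjusted p = 0.0395). The other 4 subunits, Mcm2, Mcm4, Mcm5 and Mcm6, had log2 fold changes from -0.07 for Mcm2 to -0.02 for Mcm4 with IL-1b and from -0.09 for Mcm5 to 0.05 for Mcm4 with LPS. Mcm2 averaged 46.9 ± 1.73 CPM with IL-1b, 47.2 ± 3.37 CPM with LPS and 49.2 ± 1.78 CPM in control (SD, n = 4 each).

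The licensing factors were not called, and their intervals were wide. Cdc6, which helps load the helicase, averaged 5.98 ± 0.133 CPM with IL-1b, 6.40 ± 1.17 CPM with LPS and 6.89 ± 0.738 CPM in control (SD, n = 4 each). Its IL-1b cultures lay wholly below control, and its log2 fold change was -0.21 ± 0.11, with a 95% interval of -0.43 to 0.0098. Without control replicate 4, in which Cdc6 was highest, it was -0.13 with IL-1b and, with LPS, -0.033, where it was -0.12 with all libraries. Orc6, a subunit of the origin recognition complex, had -0.18 ± 0.09 with IL-1b and -0.08 ± 0.09 with LPS. Orc1, its largest subunit, had -0.08 ± 0.11 and -0.04 ± 0.11, and the loader Cdt1 had -0.02 ± 0.08 and -0.06 ± 0.08, with IL-1b and LPS in that order. The helicase activators were not called either: Cdc45 had -0.12 ± 0.09 with IL-1b and 0.01 ± 0.08 with LPS, Mcm10 had 0.02 ± 0.08 and 0.06 ± 0.08, and the GINS subunits Gins1 and Gins2 had -0.02 ± 0.13 and 0.04 ± 0.12 with IL-1b and -0.21 ± 0.13 and 0.01 ± 0.12 with LPS. The lowest counts were those of Gins1, at 84 to 120 in a library.

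LPS and IL-1b cultures were also set against each other. Of the 35 genes, Mcm7, Tyms and Slbp were higher with LPS, where 11.3% of all genes tested were higher, and none was lower, where 10.6% were. These 3 were also the genes whose LPS cultures lay wholly above their IL-1b cultures, beside 11.1% of all genes tested. At an unadjusted p under 0.05, 6 genes were higher and 0 lower in edgeR's test, and DESeq2 called 3 higher and 0 lower. Shares of all genes are not given here for these counts, so no direction is read from them. Without LPS replicate 3, Mcm7 and Tyms were called higher and none lower, beside 8.39% and 8.14% of all genes tested. Chaf1b had a log2 difference of 0.22 ± 0.08 (adjusted p = 0.0613) and passed the threshold without IL-1b replicate 3 or LPS replicate 2 (0.27 in each, adjusted p 0.0276 to 0.0343). Pcna had 0.11 ± 0.05 (adjusted p = 0.12) and passed it without IL-1b replicate 1 (0.16, adjusted p = 0.0157) and with no filter on low counts (adjusted p = 0.0185).

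Pairs of genes from the same role group were compared as a ratio of read counts within each library, which cancels library scaling. The pairs were chosen after the values had been seen. The ratio of Rrm2 to Rrm1 was 0.551 ± 0.029 with IL-1b, 0.574 ± 0.0275 with LPS and 0.636 ± 0.0246 in control (SD, n = 4 each), and neither treated group overlapped control. The ratio of Hells to Uhrf1 was 0.834 ± 0.0596 with IL-1b, 0.749 ± 0.0557 with LPS and 0.531 ± 0.0416 in control, again with no overlap. The ratio of Pole to Pold1 was 1.1 ± 0.0448 with IL-1b, 1.14 ± 0.123 with LPS and 1.39 ± 0.0877 in control. That of Chaf1b to Chaf1a was 0.317 ± 0.0194 with IL-1b, 0.36 ± 0.033 with LPS and 0.384 ± 0.022 in control. The ratios of the other 5 pairs were, with IL-1b, LPS and control in that order, 1.07 ± 0.185, 1.2 ± 0.231 and 1.01 ± 0.0814 for Gins2 to Gins1, 0.772 ± 0.0389, 0.814 ± 0.156 and 0.827 ± 0.114 for Orc6 to Orc1, 1.69 ± 0.0378, 1.75 ± 0.178 and 1.62 ± 0.0504 for Prim1 to Pola1, 0.578 ± 0.0679, 0.621 ± 0.0525 and 0.65 ± 0.0559 for Cdc6 to Cdt1, and 1.38 ± 0.124, 1.16 ± 0.154 and 1.19 ± 0.094 for Tk1 to Tyms. Over 9 pairs and 27 comparisons, 6 had a two-sided exact permutation p of 0.0286 (adjusted p = 0.129), the smallest that 4 against 4 libraries allow. Because the pairs were chosen on these values, the p-values cannot test them, and the ratios are given as a description alone.

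**Figure D4:**
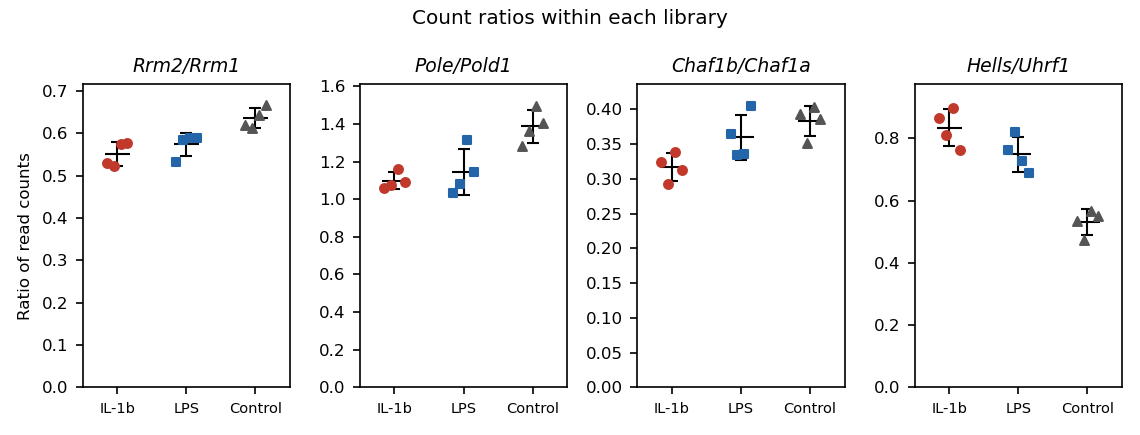
Ratio of read counts of 4 of the 9 pairs of replication genes within each library, chosen for their values, with the mean (long bar) and SD (short bars) of 4 libraries, on axes that start at 0. The ratio of Hells to Uhrf1 averages 0.834 with IL-1b, 0.749 with LPS and 0.531 in control, and the ratio of Rrm2 to Rrm1 is lower in both treated groups than in control.

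Promoter sequence was available for 31 of the 35 genes from RefSeq (build GRCr8, while the counts were made on Rnor_6.0), as a window of 250 bases before and 50 bases after the annotated start. Mcm4, Rrm2, Cdc6 and Orc1 were not among them. An E2F-type word (TTTCCCGC, TTTCGCGC, TTTGCCGC or TTTGGCGC, on either strand, overlapping matches included) stood in 14 of the 31 windows (45.2%), beside 618 of 27457 windows of all genes (2.25%). A CCAAT word stood in 19 (61.3%), beside 37.7% of all windows, and the word TTTGAA in 2 (6.45%), beside 18.1%. The E2F-type word stood in 2 of the 7 matched genes that were called lower with both treatments, in all 3 genes called higher with either treatment (Hells, Mcm3 and Mcm7) and in 9 of the 21 called in neither comparison. A match describes letters in a window, not a bound site.

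The 250 bases before the start are shown for 4 genes with the word that differed in their values: Tyms, lower with both treatments (chr9:120776084-120776333, minus strand), Hells, higher with both (chr1:246113879-246114128, plus strand), Mcm7, higher with LPS (chr12:22163179-22163428, minus strand), and Mcm5, called in neither (chr19:13488563-13488812, plus strand), with E2F-type matches in capitals.
Tyms: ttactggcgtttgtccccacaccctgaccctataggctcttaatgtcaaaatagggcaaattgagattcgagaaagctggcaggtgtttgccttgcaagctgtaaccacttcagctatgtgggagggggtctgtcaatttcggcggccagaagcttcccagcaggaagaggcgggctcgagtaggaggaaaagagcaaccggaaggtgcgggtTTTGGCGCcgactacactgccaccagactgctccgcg
Hells: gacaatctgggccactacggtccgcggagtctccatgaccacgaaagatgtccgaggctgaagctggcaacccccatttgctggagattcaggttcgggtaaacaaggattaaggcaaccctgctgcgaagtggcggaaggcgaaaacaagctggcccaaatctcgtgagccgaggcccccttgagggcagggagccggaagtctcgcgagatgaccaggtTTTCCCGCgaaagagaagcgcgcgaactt
Mcm7: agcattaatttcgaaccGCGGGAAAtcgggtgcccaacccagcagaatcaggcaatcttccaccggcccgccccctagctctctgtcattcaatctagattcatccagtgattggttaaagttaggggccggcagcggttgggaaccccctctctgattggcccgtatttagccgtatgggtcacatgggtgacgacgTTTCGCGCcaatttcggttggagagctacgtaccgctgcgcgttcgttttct
Mcm5: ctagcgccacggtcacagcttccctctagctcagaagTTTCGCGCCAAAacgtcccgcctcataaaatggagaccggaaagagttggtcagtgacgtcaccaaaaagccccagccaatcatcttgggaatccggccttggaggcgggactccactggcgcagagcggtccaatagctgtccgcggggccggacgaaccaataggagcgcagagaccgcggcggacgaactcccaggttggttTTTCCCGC
Tyms and Hells each carried 1 match near the start, at bases -37 and -29, while Mcm7 carried 2 and Mcm5 carried 3, of which 2 overlapped.

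Genes that work beside the 35 were taken from 4 lists, whose counts stand beside 24.7% higher and 23.0% lower of all genes tested with IL-1b and 22.5% higher and 20.0% lower with LPS. Of 40 tested genes of other replication proteins, 5 rose and 4 fell with IL-1b, and 7 rose and 2 fell with LPS. Rpa1, the large subunit of the protein that coats single-stranded DNA, averaged 57.4 ± 2.05 CPM with IL-1b, 60.2 ± 1.89 CPM with LPS and 67.5 ± 3.96 CPM in control (SD, n = 4 each), and fell with IL-1b (-0.23 ± 0.04, adjusted p = 2.49e-05) and LPS (-0.16 ± 0.04, adjusted p = 0.00142). Top1, which relieves the twist ahead of the fork, rose with IL-1b (0.16 ± 0.03, adjusted p = 0.000262) and LPS (0.18 ± 0.03, adjusted p = 6.63e-05). Rnaseh2a, a ribonuclease subunit that removes RNA from DNA, rose with IL-1b (0.22 ± 0.05, adjusted p = 0.000844) and LPS (0.16 ± 0.05, adjusted p = 0.0093). Its partner Rnaseh2b rose with LPS (0.25 ± 0.06, adjusted p = 0.000438), and its log2 fold change with IL-1b was 0.09 ± 0.06 (adjusted p = 0.194).

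Of 15 further genes of nucleotide supply and S phase chromatin, 1 rose and 5 fell with IL-1b, and 1 rose and 2 fell with LPS. Nme1, a nucleoside diphosphate kinase, averaged 31.5 ± 2.13 CPM with IL-1b, 36.9 ± 2.82 CPM with LPS and 41.3 ± 1.57 CPM in control and fell by 0.39 ± 0.05 with IL-1b (adjusted p = 8.17e-07) and by 0.16 ± 0.05 with LPS (adjusted p = 0.0127). Samhd1, which breaks down deoxynucleotides, fell with IL-1b (-0.32 ± 0.06, adjusted p = 2.51e-05), and its log2 fold change with LPS was -0.07 ± 0.05 (adjusted p = 0.289). Dnmt1, the maintenance DNA methyltransferase that works with Uhrf1, fell with IL-1b (-0.18 ± 0.05, adjusted p = 0.0112) and LPS (-0.20 ± 0.05, adjusted p = 0.00594). Tk2 rose with LPS (0.17 ± 0.05, adjusted p = 0.0112), and its log2 fold change with IL-1b was -0.025 ± 0.055 (adjusted p = 0.742). LPS cultures were higher than IL-1b cultures for 6 of the 15 genes and lower for 0, beside 11.3% and 10.6% of all genes tested. Among the 6 were Nme1 (0.23 ± 0.05, adjusted p = 0.00309), Samhd1 (0.24 ± 0.06, adjusted p = 0.00204) and Tk2 (0.20 ± 0.05, adjusted p = 0.00982).

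Of 21 tested genes that control entry into S phase through E2F, RB and CDK2, 6 rose and 5 fell with IL-1b, and 5 rose and 3 fell with LPS. Cdk2, the kinase that drives S phase, averaged 28.5 ± 1.55 CPM with IL-1b, 29.5 ± 1.60 CPM with LPS and 34.9 ± 1.00 CPM in control (SD, n = 4 each). It fell by 0.29 ± 0.05 with IL-1b (adjusted p = 1.44e-05) and by 0.24 ± 0.05 with LPS (adjusted p = 0.000136). Its inhibitor Cdkn1a (p21) fell as well, by 0.42 ± 0.04 with IL-1b (adjusted p = 1.66e-09) and by 0.18 ± 0.04 with LPS (adjusted p = 0.000454). Rbl2, an RB-family repressor of E2F targets, rose with IL-1b (0.26 ± 0.04, adjusted p = 3.97e-06), with -0.0054 ± 0.04 for LPS. E2f4 rose with IL-1b (0.10 ± 0.04, adjusted p = 0.0451) and LPS (0.18 ± 0.04, adjusted p = 0.00066).

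Genes of G2 and mitosis, the phases that follow S phase, had the largest share of lower genes among these 4 lists. Of 22 tested genes, 11 fell with IL-1b and 12 with LPS, and 0 rose in edgeR's test with either. Kif23, a kinesin of the dividing cell's midzone, averaged 58.9 ± 3.03 CPM with IL-1b, 66.8 ± 6.62 CPM with LPS and 118 ± 3.63 CPM in control and fell by 1.00 ± 0.06 with IL-1b (adjusted p = 4.62e-10) and by 0.82 ± 0.06 with LPS (adjusted p = 5.86e-09). Cdk1, the mitotic kinase, fell by 0.37 ± 0.05 with IL-1b (adjusted p = 9.64e-07) and by 0.27 ± 0.05 with LPS (adjusted p = 9.58e-05). The median log2 fold change of this list was -0.14 with IL-1b and -0.15 with LPS.

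**Figure D5:**
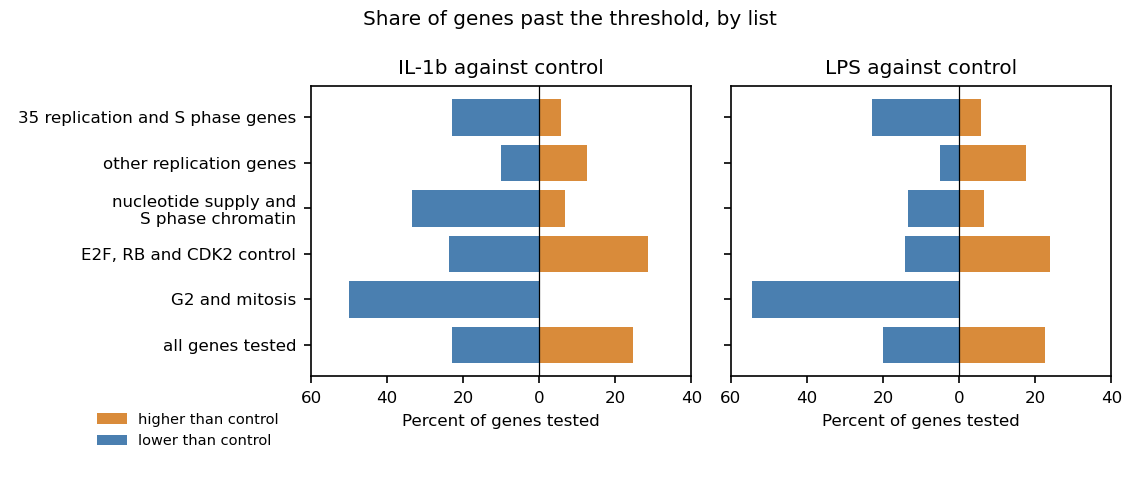
Percent of tested genes past the threshold in 5 gene lists and in all genes tested, for IL-1b (left) and LPS (right) against control, with genes lower than control drawn to the left of 0 and genes higher to the right. The 35 replication genes have 8 lower and 2 higher genes in each panel, and the list of G2 and mitosis has lower genes alone.

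Markers of other cell types differed between treated and control cultures, with members of some lists moving in both directions. Summed over 7 smooth muscle markers, levels were 1478 to 1679 CPM with IL-1b, 1788 to 2033 CPM with LPS and 4627 to 5018 CPM in control. The 10 macrophage markers summed to 89.4 to 98.8 CPM with IL-1b, 91.9 to 99.4 CPM with LPS and 132 to 141 CPM in control, and the 8 stromal markers to 11860 to 13200, 10190 to 11400 and 14940 to 16430 CPM in the same order. The opposite direction held for 8 endothelial markers, at 317 to 357 CPM with IL-1b, 223 to 297 CPM with LPS and 145 to 169 CPM in control, and for 7 theca markers, at 601 to 657, 445 to 507.5 and 206 to 237 CPM in the same order. The 8 granulosa markers summed to 666 to 863, 449.8 to 623 and 397 to 466 CPM, the 8 epithelial markers to 55.4 to 61.6, 37.0 to 48.8 and 42.9 to 45.4 CPM, and the 5 oocyte markers to 85.6 to 118.5, 72.9 to 142 and 141 to 155 CPM in that order. Sums follow the most abundant markers of a list. With IL-1b, 2 stromal markers rose and 5 fell, 1 macrophage marker rose and 7 fell, 1 smooth muscle marker rose and 5 fell, 6 granulosa markers rose and 1 fell, and 2 epithelial markers rose and 3 fell although their sum was higher. With LPS, 2 stromal markers rose and 6 fell, 2 macrophage markers rose and 7 fell, 3 granulosa markers rose and 1 fell, and 2 epithelial markers rose and 3 fell. The 5 T cell markers summed to at most 2.59 CPM, and their defining gene Cd3e was at 0 in some libraries. Apart from such single libraries, no marker was at 0 throughout a group. The part of these cell types in the differences of the replication genes was not tested.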

How the data were processed

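RNA was sequenced from 12 cultures (Illumina stranded mRNA libraries, per the labels' protocols). The authors deposited whole-number read counts, not normalized, with 1 row a gene symbol and 1 column a library. TopHat2 2.1.1, SAMtools and DESeq2 are named with build Rnor_6.0, per the submitters' processing notes; the counting program, its strand setting and the annotation are not given in the sources used here, so reads shared by near-identical or overlapping genes may be split. Of 30045 rows, 1425 held no count.

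Counts were tested in R 4.3.3 with edgeR 4.0.16 (filterByExpr, TMM with factors from 0.976 to 1.02, glmQLFit with robust settings on all 12 libraries, group as the sole term, two-sided quasi-likelihood F-tests). p-values were adjusted by Benjamini-Hochberg over 17330 genes, and calls required an adjusted p below 0.05 and no fold change limit. The SE is the absolute log2 fold change divided by the square root of F. The fit was tested on simulated counts. The 35 genes and the lists were chosen with earlier results of these data known. All 35 genes are described; from the other lists, the 3 called genes with the lowest p per comparison could be named. Replicate pairs all differed by more than counting noise. With group means taken out, same-numbered cultures of different groups had correlations of -0.033 to 0.117 (median 0.0268). Differently numbered cultures had -0.0749 to 0.0557 (median -0.0124). Such small values cannot decide whether same-numbered cultures were paired, and the main fit used no pairing. Counts limit precision: the SE of the 35 genes ran from 0.032 to 0.13. Alternatives were other scalings and filters, DESeq2 1.42.0, 8-library fits, a replicate block, leaving out each library and an adjusted p under 0.01.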

Additional observations from a re-analysis of the deposited data

Results flagged for a closer look

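In 7 of 105 groups of 4 libraries, 1 library of a replication gene stood far from the other 3, meaning that its gap to the nearest one, divided by the range of the group, was above Dixon's 95% critical value. Chance flags about 1 in 20 groups. In control cultures, Cdc6 was high in replicate 4 at 8.0 CPM, beside 6.49 to 6.56 CPM in the others (gap ratio 0.943). Control replicate 1 was low for Mcm2, at 46.5 CPM beside 49.8 to 50.3 CPM (0.867), and for Mcm6, at 56.8 CPM beside 60.5 to 61.2 CPM (0.851). IL-1b replicate 2 was high for Mcm4, at 49.9 CPM beside 47.5 to 47.7 CPM (0.909), and low for Rfc3, at 14.7 CPM beside 18.5 to 18.8 CPM (0.939). LPS replicate 1 was high for Pold1, at 19.8 CPM beside 17.5 to 17.8 CPM (0.851), and low for Rfc2, at 16.9 CPM beside 19.0 to 19.3 CPM (0.874). None of these 7 genes was called in a comparison with all libraries.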

How the results depend on the processing

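Calls were recomputed under other scalings, filters, tests and sets of libraries. For calls of single genes, 364 of 414 alternative values kept direction and side of the threshold, 50 fell short of it and none reversed. For genes not called, 16 of 1476 passed the threshold and 93 changed sign; the cause of these changes was not tested. With DESeq2's size factors and with upper-quartile factors, no gene of the 35 gained or lost a call in any comparison. Library size alone gave 5 higher and 4 lower genes with LPS, beside 5015 and 2896 of all genes tested. Mean summed levels were then 1070 CPM with IL-1b, 1094 CPM with LPS and 1093 CPM in control, beside 1055, 1087 and 1116 CPM under TMM. The LPS libraries overlapped control under TMM as well, at 1054 to 1161 CPM beside 1090 to 1139 CPM. An adjusted p under 0.01, a stricter limit, left 1 higher gene with IL-1b, 2 lower genes with LPS, and 1137 higher and 1065 lower genes of all genes between LPS and IL-1b. DESeq2 called 1 higher gene with IL-1b. Shares over all genes are not given here for the counts against control at the stricter limit and in DESeq2. Adding the near-identical unnamed rows to Rrm2 and Hells, an alternative chosen after seeing the data, changed no count of the 35 genes. No gene had a numbered second copy, so that sum gave no value.

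Leaving out each library in turn gave 1 to 2 higher and 7 to 8 lower genes with IL-1b. With LPS it gave 2 to 4 higher and 5 to 11 lower, and between LPS and IL-1b 2 to 4 higher and 0 lower. Over all genes, the ranges were 3934 to 3987 higher and 3686 to 3768 lower with IL-1b. With LPS they were 3466 to 3666 higher and 3162 to 3386 lower. Between LPS and IL-1b they were 1472 to 2118 higher and 1427 to 1953 lower. With replicate number as a block, 2 genes rose and 8 fell with IL-1b, and 3 rose and 8 fell with LPS. Between LPS and IL-1b, 4 were higher and 0 lower. Over all genes, the block gave 4392 higher and 4153 lower with IL-1b and 4077 higher and 3654 lower with LPS. Between LPS and IL-1b it gave 2176 higher and 2080 lower. Whether the numbers pair the cultures is not settled. The labels give no batch, and the low counts of Gins1 and Gins2 limit their precision.

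Log2 differences that changed sign, none of them called, were as follows. With DESeq2's size factors, Mcm6 had -0.0011 (LPS against control). With upper-quartile factors, Mcm6 had -0.0052 and Gins2 -0.0018 (LPS against control), and Mcm2 -0.0033 and Pola1 -0.011 (LPS against IL-1b). With library size alone, IL-1b against control gave Cdt1 0.029, Mcm4 0.029, Mcm7 0.049, Gins1 0.029, Prim1 0.025, Rfc1 0.0076, Rfc2 0.014, Rfc3 0.043, Rfc4 0.028 and Lig1 0.016, LPS against control gave Orc1 0.0017, Pold1 0.031 and Rfc1 0.020, and LPS against IL-1b gave Mcm2 -0.0030 and Pola1 -0.011. With no filter on low counts, Rfc2 had 0.00038 and Rrm1 0.00012 (LPS against IL-1b). With a filter at a mean of 2 CPM, Mcm6 had -0.00031 (LPS against control) and Pola1 -0.0060 (LPS against IL-1b). Without each library in turn, the ranges for IL-1b against control were Cdt1 -0.076 to 0.044, Fen1 -0.018 to 0.036, Gins1 -0.11 to 0.047, Gins2 -0.050 to 0.14, Mcm10 -0.062 to 0.074, Mcm4 -0.039 to 0.0098, Mcm7 -0.020 to 0.024, Rfc3 -0.040 to 0.070 and Rfc4 -0.051 to 0.032. For LPS against control they were Cdc45 -0.035 to 0.075, Gins2 -0.077 to 0.11, Mcm6 -0.033 to 0.033, Orc1 -0.16 to 0.035, Pold1 -0.050 to 0.018, Prim1 -0.017 to 0.041, Rfc1 -0.043 to 0.0033, Rfc2 -0.072 to 0.0012, Rfc4 -0.017 to 0.11 and Rfc5 -0.021 to 0.091. For LPS against IL-1b they were Cdc6 -0.024 to 0.17, Cdt1 -0.10 to 0.019, Fen1 -0.012 to 0.069, Gins2 -0.075 to 0.013, Mcm10 -0.022 to 0.12, Mcm2 -0.041 to 0.035, Mcm5 -0.087 to 0.011, Orc1 -0.079 to 0.11, Pola1 -0.050 to 0.031, Pole -0.043 to 0.060, Rfc2 -0.028 to 0.047, Rrm1 -0.058 to 0.023, Rrm2 -0.011 to 0.12 and Tk1 -0.11 to 0.0084.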
